A study of Homo sapiens with 6 samples.

Results

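This account covers 9 genes of interferon receptor signalling in Ishikawa cells, an established human endometrial cancer line: the receptor chain genes IFNAR1 and IFNAR2, the receptor-bound kinase genes JAK1 and TYK2, the signal transducer gene STAT2, and the interferon regulatory factor genes IRF9, IRF1, IRF3 and IRF7. They were taken by gene symbol from a deposited table of 58735 genes, where all 9 have 1 row each and all 9 passed the filter on low counts, among 17299 tested genes. The measurement was RNA-seq. The cells received either a control siRNA (siNC, 3 libraries) or an siRNA against TCF19 (siTCF19, 3 libraries) by lipofection, were kept in DMEM with serum, and were harvested after 48 hours. Both groups are the same line without a stated gene edit, so the knockdown is transient and both groups went through transfection with a double-stranded RNA. No untransfected cells are among the samples. The submitters speak of triplicates and name no separate cultures, and a p-value here therefore reflects spread among libraries that may be technical replicates.

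Type I interferons bind a receptor made of the IFNAR1 and IFNAR2 chains. TYK2 sits on IFNAR1 and JAK1 on IFNAR2, and the pair of kinases phosphorylates STAT proteins. STAT2 with IRF9 and a further STAT protein forms the factor ISGF3, which binds a DNA element called ISRE in front of interferon-stimulated genes. IRF3 is held ready in most cells and is switched on by phosphorylation when foreign nucleic acid is sensed, IRF7 is itself interferon-inducible and amplifies interferon production, and IRF1 is a short-lived activator that is known as a target of STAT dimers at a second element called GAS. The activity of most of these proteins is set by phosphorylation, which RNA-seq does not measure.

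The 6 libraries held 14680022 to 16244705 counts each. TCF19 itself had 2572, 2905 and 2756 counts in siNC and 675, 529 and 606 in siTCF19, so that its CPM (read counts divided by the TMM-scaled size of the library) was 4.59-fold lower in the knockdown. Over all tested genes 41.5% were called at an edgeR adjusted p under 0.05, 20.7% higher and 20.8% lower in siTCF19, and in 49.2% the 3 libraries of one group all lay above the 3 of the other. Of the called genes 49.92% were higher, and 61.35% with library-size-only scaling. The epithelial markers KRT8, KRT18, EPCAM and PAX8 were abundant, while the oestrogen receptor gene ESR1 had 0 to 4 counts and the progesterone receptor gene PGR 1 to 4 counts in each library. Of all 10 epithelial and gland markers, 8 were tested, 3 rose and 2 fell, a called share of 62.5% beside 41.5%. The 10 immune cell markers summed to 1.65 to 4.43 CPM in siNC and 1.52 to 2.34 CPM in siTCF19, with LILRA4 at 0 throughout. The sum was highest in siNC replicate 3, where PTPRC had 16 counts against 0 to 2 elsewhere. The 8 stromal and endothelial markers summed to 184 to 187 CPM in siNC and 140 to 152 CPM in siTCF19, with DCN at 0 throughout. A single gene reached 2505 counts, where the list summed to 2720 to 2909 counts in siNC. All 4 tested markers of this list were called, beside 41.5% of all tested genes. VWF rose 3.03-fold and COL1A1 1.49-fold, and COL1A2 fell to 0.632 and CDH5 to 0.264 of the control level. The part of any of these markers in the results was not tested. In bulk RNA, fewer cells that express a gene and less RNA of it per cell cannot be told apart.

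Of the 9 genes, IFNAR1 rose and TYK2 and IRF7 fell in siTCF19, and 6 were not called. The 3 called genes, 33.3% of the set, stand beside 41.5% of all tested genes, so the share is not above the background. The same 3 genes are those whose groups did not overlap, beside 49.2% of all tested genes. The median log2 fold change of the 9 was -0.05, against 0.00 over all tested genes. The 9 genes summed to 424 to 429 CPM in siNC and 415 to 437 CPM in siTCF19. The authors' deposited table, made from the same libraries, lists an adjusted p under 0.05 for the same 3 genes only.

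**Figure D1:**
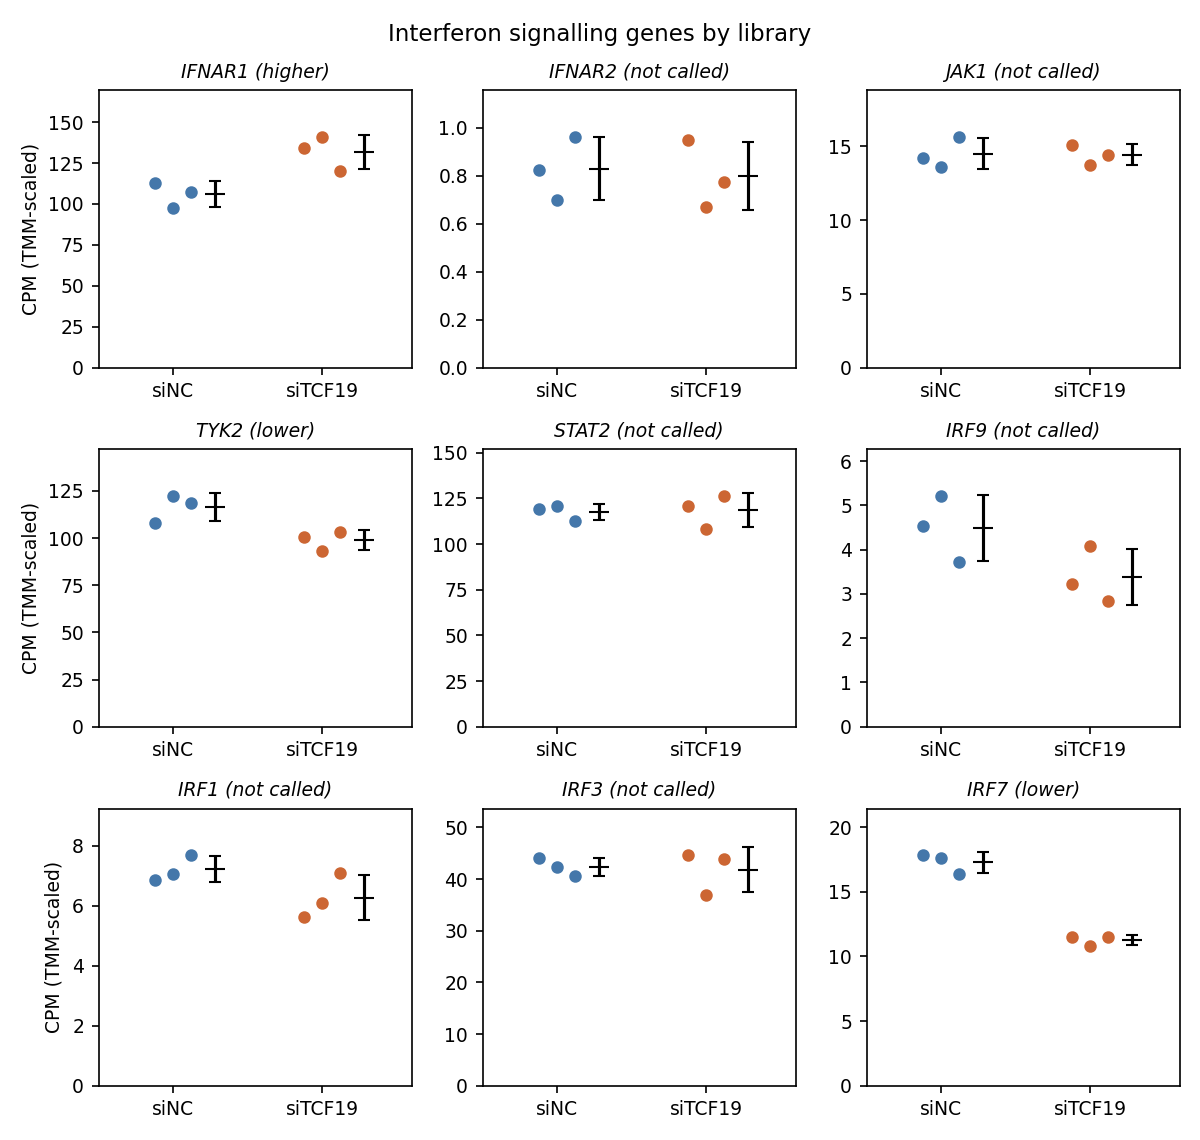
CPM on TMM-scaled library sizes (vertical axes, each from 0) of the 9 genes in the 3 siNC and 3 siTCF19 libraries; points are libraries in replicate order and black marks are the mean with its SD. The groups are apart for IFNAR1, TYK2 and IRF7 and overlap for the other 6 genes.

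Of the receptor chains, only IFNAR1 had many counts. IFNAR1 (ENSG00000142166, chromosome 21, 33324477 to 33359862, plus strand, hg38) measured 113, 97.5 and 107 CPM in siNC and 134, 141 and 120 CPM in siTCF19. Every knockdown library lay above every control library. The means were 106 ± 7.89 and 132 ± 10.6 CPM (SD, n = 3 per group), a 1.24-fold rise with a 95% interval of 1.15 to 1.35 (log2 fold change 0.32 ± 0.06 SE, edgeR adjusted p = 2.15e-05). No exon base of IFNAR1 is shared with another annotated gene.

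IFNAR2 (ENSG00000159110, chromosome 21, 33229901 to 33265675, plus strand) encodes the chain that carries JAK1. It was counted 12, 11 and 15 times in the control libraries and 15, 10 and 12 times in the knockdown, which is 0.829 ± 0.131 and 0.797 ± 0.142 CPM (SD, n = 3 per group), and was higher than only 5.47% of tested genes in mean CPM. The groups overlapped fully (fold 0.963, 95% interval 0.539 to 1.72, edgeR adjusted p = 0.934). The interval is wide, and a rise of up to 1.72-fold or a fall to 0.539 of the control level lies within it. Of its 4614 exon bases, 44.2% are also exon of AP000295.1, a read-through gene that spans IFNAR2 and its neighbour, and 83.3% are exon of some other gene on either strand. AP000295.1 was counted at 0 or 1 in each library. The treatment of reads that fall on several genes is not given by the sources used, so the low IFNAR2 count may not measure its transcript level.

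The receptor kinases differed from each other in level and in call. TYK2 (ENSG00000105397, chromosome 19, 10350529 to 10380676, minus strand) measured 108, 122.5 and 119 CPM in siNC and 100.4, 93.4 and 103.5 CPM in siTCF19. The groups did not overlap, though the lowest control and the highest knockdown library were close. The means fell from 116 ± 7.54 to 99.1 ± 5.18 CPM (SD, n = 3 per group), a fold of 0.851 with a 95% interval of 0.787 to 0.921 (log2 fold change -0.23 ± 0.06 SE, edgeR adjusted p = 0.000769). JAK1 (ENSG00000162434, chromosome 1, 64833229 to 64966504, minus strand) measured 14.2, 13.6 and 15.7 CPM in siNC and 15.1, 13.8 and 14.4 CPM in siTCF19. The JAK1 groups overlapped throughout (fold 0.996, 95% interval 0.857 to 1.16, edgeR adjusted p = 0.975).

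STAT2 (ENSG00000170581, chromosome 12, 56341597 to 56360155, minus strand) was the most abundant of the 9 in control cells per length of transcript. Its CPM was 119, 121 and 113 in siNC and 121, 108 and 126.5 in siTCF19. The knockdown libraries lay on both sides of the control range, and the means were 118 ± 4.38 and 119 ± 9.32 CPM (SD, n = 3 per group). The fold was 1.01 with a 95% interval of 0.934 to 1.09 (edgeR adjusted p = 0.877), so a fall of STAT2 mRNA to under 0.934 of its control level lies outside the interval. STAT2 shares no exon base with another annotated gene.

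IRF9 (ENSG00000213928, chromosome 14, 24161053 to 24166565, plus strand), the DNA-binding partner of STAT2 in ISGF3, was scarce. The control libraries held 66, 82 and 58 of its counts and the knockdown libraries 51, 61 and 44, which is 4.49 ± 0.75 and 3.38 ± 0.633 CPM (SD, n = 3 per group). The lowest control library, at 3.72 CPM, lay below the highest knockdown library, at 4.07 CPM. IRF9 was not called (fold 0.751, 95% interval 0.567 to 0.996, edgeR adjusted p = 0.0984), and its upper bound lies just under 1. Without siTCF19 replicate 2 it was called (log2 fold change -0.56, edgeR adjusted p = 0.0459). Of its 3794 exon bases, 48.4% are also exon of AL136295.5, a read-through gene on the same strand that spans all of IRF9. That gene had 38, 47 and 53 counts in siNC and 39, 33 and 26 in siTCF19 and was not called either (log2 fold change -0.51, edgeR adjusted p = 0.0968). With the counts of both added, a choice made after seeing the data, the control libraries summed to 104, 129 and 111 and the knockdown libraries to 90, 94 and 70, with a fold of 0.732 (95% interval 0.588 to 0.913) and an edgeR adjusted p of 0.0192. Another assignment of the shared reads was not tested.

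IRF1 (ENSG00000125347, chromosome 5, 132481609 to 132490798, minus strand) measured 6.87, 7.07 and 7.70 CPM in siNC and 5.63, 6.08 and 7.09 CPM in siTCF19. Its groups overlapped in 1 knockdown library, and it was not called (fold 0.868, 95% interval 0.703 to 1.07, edgeR adjusted p = 0.296). Of its exon bases, 22.0% are exon of C5orf56 on the opposite strand, which had a log2 fold change of 0.30 (edgeR adjusted p = 0.244). Without the strand setting of the counting, reads of an overlapping pair on opposite strands cannot be assigned with certainty.

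IRF3 and IRF7 are the factors that drive interferon genes after nucleic acid sensing, and they parted here. IRF3 (ENSG00000126456, chromosome 19, 49659569 to 49665875, minus strand) measured 44.1, 42.4 and 40.6 CPM in siNC and 44.7, 36.9 and 44.0 CPM in siTCF19. Its knockdown libraries enclosed the control range, and it was not called (fold 0.989, 95% interval 0.891 to 1.10, edgeR adjusted p = 0.887). IRF3 shares 19.4% of its exon bases with BCL2L12 on the opposite strand, which was not called either (log2 fold change 0.01, edgeR adjusted p = 0.956).

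IRF7 (ENSG00000185507, chromosome 11, 612553 to 615999, minus strand) had the largest difference and the lowest p of the 9. It measured 17.9, 17.6 and 16.4 CPM in siNC and 11.5, 10.8 and 11.5 CPM in siTCF19. All 3 knockdown libraries lay well below all control libraries. The means fell from 17.3 ± 0.811 to 11.3 ± 0.391 CPM (SD, n = 3 per group), a 1.53-fold fall (fold 0.652, 95% interval 0.561 to 0.759, log2 fold change -0.62 ± 0.11 SE, edgeR adjusted p = 8.36e-06). No exon base of IRF7 is shared with another annotated gene.

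**Figure D2:**
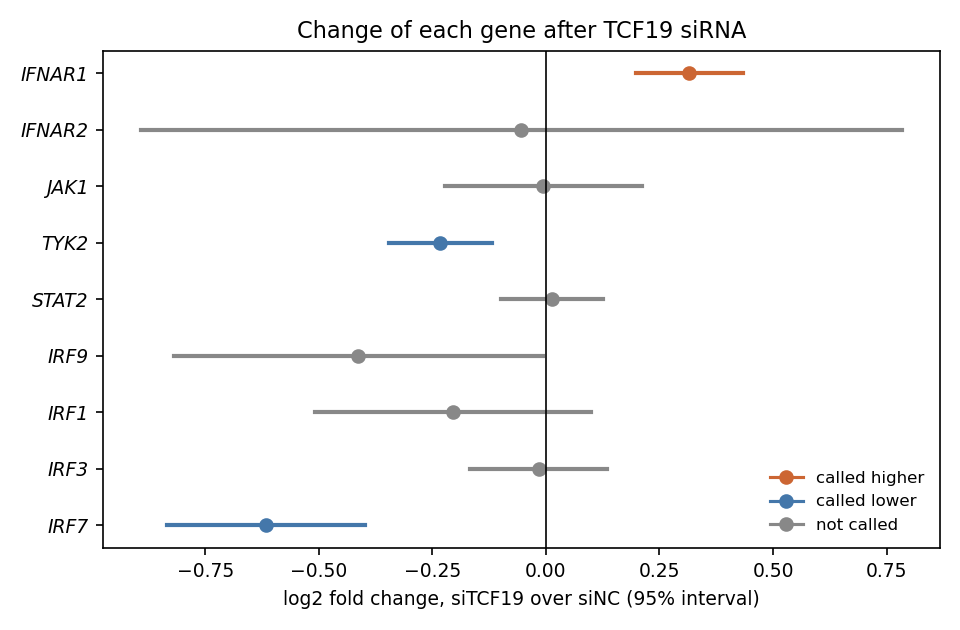
Log2 fold change of siTCF19 over siNC (horizontal axis) with its 95% interval for each of the 9 genes, coloured by call at an edgeR adjusted p under 0.05. IRF7 lies lowest at -0.62, IFNAR1 highest at 0.32, and IFNAR2 has the widest interval.

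Ranked by centred log2 CPM over the 6 libraries, the protein-coding genes nearest to the IRF7 profile among those with a mean of at least 5 CPM were SH3PXD2B, MUC4, RPL12, YARS and RPL14. Their Pearson correlations with IRF7 over the 6 libraries ran from 0.9945 to 0.9964, a description of points that share the difference between the groups. SH3PXD2B, a scaffold of invasive cell protrusions, had a log2 fold change of -0.57, and MUC4, a membrane mucin, of -0.60. The ribosomal protein genes RPL12 and RPL14 had -0.63 and -0.58, and the tyrosyl-tRNA synthetase gene YARS had -0.59.

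Levels between genes were compared on the deposited FPKM, which divides by gene length. In siNC the order of mean levels was STAT2 (19.1 FPKM), TYK2 (17.0), IFNAR1 (16.7), IRF3 (11.1), IRF7 (6.52), JAK1 (2.27), IRF9 (1.17), IRF1 (0.917) and IFNAR2 (0.178 FPKM). The libraries of TYK2 and IFNAR1 overlapped, as did those of IRF9 and IRF1, and every other neighbouring pair was apart in all 3 libraries. In siTCF19, IFNAR1 came first at 20.7 ± 1.63 FPKM (SD, n = 3), overlapping with STAT2 at 19.2 ± 1.57 FPKM, followed by TYK2 at 14.5 ± 0.802 FPKM. The order from IRF3 to IFNAR2 was the same in both groups. The places of IRF9, IRF1, IRF3 and IFNAR2 carry the shared exon bases described for each.

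**Figure D3:**
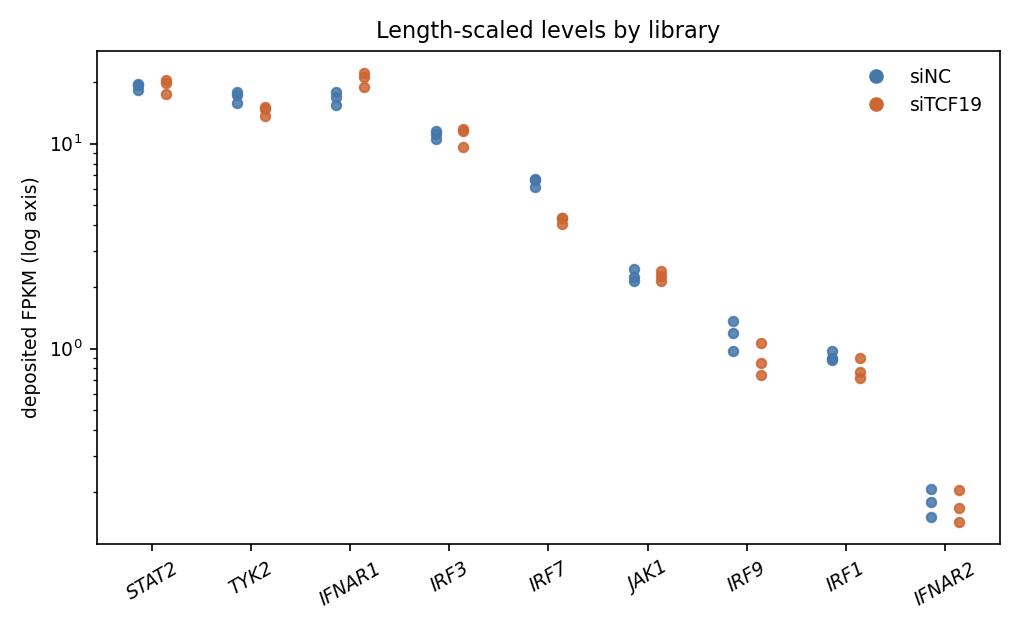
Deposited FPKM of the 9 genes in each library (vertical axis, log scale), ordered by the mean level in siNC, with siNC in blue and siTCF19 in orange. Library values run from 22.1 FPKM for IFNAR1 down to 0.143 FPKM for IFNAR2, both in siTCF19.

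Ratios between partners within a library do not depend on library scaling, and 4 such FPKM ratios were compared with an exact two-sided permutation test over the 6 libraries, which cannot go below p = 0.1 with 3 against 3. IRF7 stood at 0.585, 0.600 and 0.582 of IRF3 in siNC and at 0.372, 0.424 and 0.377 of it in siTCF19. The groups were apart, with a difference of -0.59 on the log2 scale (exact permutation p = 0.1, or 0.133 adjusted over the 4 ratios). JAK1 stood at 0.141, 0.119 and 0.141 of TYK2 in siNC and at 0.162, 0.158 and 0.150 in siTCF19, also apart, with a difference of 0.23 (exact permutation p = 0.1, adjusted 0.133). IFNAR1 was 100.4, 102 and 81.7 times IFNAR2 in siNC and 103, 155 and 114 times IFNAR2 in siTCF19, a difference of 0.37 that rests on the few IFNAR2 counts (exact permutation p = 0.1, adjusted 0.133). STAT2 was 16.3, 14.4 and 18.8 times IRF9 in siNC and 23.3, 16.5 and 27.7 times IRF9 in siTCF19. These groups overlapped, with a difference of 0.42 (exact permutation p = 0.2, adjusted 0.2).

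Interferon genes were at or near 0. Of 12 interferon genes looked at, 8 of type I, which act through this receptor, 1 of type II and 3 of type III, none had more than 3 counts in any library, and 4 of them had 0 in all 6. A floor of 3 counts corresponds to 0.190 to 0.206 CPM, and it covers counting error only. No difference between the groups was detectable at this depth. IFNB1 had 0, 2 and 2 counts in siNC and 2, 2 and 2 in siTCF19. IFNK had 0, 2 and 2 counts in siNC and 3, 2 and 1 in siTCF19.

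Of 11 other receptor chain and JAK genes, 10 were tested, 3 rose, 2 fell and 5 were not called, so that 5 of 10 were called beside 41.5% of all tested genes. IL6R, the ligand-binding chain of the interleukin 6 receptor, fell from 44.8 ± 3.38 to 21.9 ± 1.05 CPM (SD, n = 3 per group, log2 fold change -1.03, edgeR adjusted p = 3.48e-14). IFNGR1, a chain of the type II interferon receptor, rose from 40.9 to 57.4 CPM (log2 fold change 0.49), and JAK2, a kinase of that receptor, from 16.8 to 26.1 CPM (0.64). OSMR, the oncostatin M receptor, fell from 25.0 to 19.3 CPM (-0.38). Thus JAK1 was not called while JAK2 rose and TYK2 fell, and the differences between these changes were tested only for the JAK1 to TYK2 ratio.

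Among the other STAT genes described here, 5 in number, 4 were tested, 2 rose and 1 fell, a called share of 75.0% beside 41.5% of all tested genes. With 4 tested genes, and 6 in the IRF list below, such shares are too rough to read as a difference from the background. STAT6, which serves interleukin 4 signalling, rose from 62.3 to 73.2 CPM (log2 fold change 0.23, edgeR adjusted p = 0.00153), and STAT3, which serves the interleukin 6 family, fell from 97.4 to 86.2 CPM (-0.18, edgeR adjusted p = 0.00737). The STAT3 call was lost with library-size-only scaling (-0.12, edgeR adjusted p = 0.0788) and without siNC replicate 3 (-0.16, edgeR adjusted p = 0.0537). STAT5B rose from 9.20 to 11.5 CPM (0.31, edgeR adjusted p = 0.0456), and this call was not made by DESeq2 (adjusted p = 0.1) or under 7 other alternatives. Of 8 other IRF genes and IRF2 partner genes, 6 were tested and 2 called, a share of 33.3% beside 41.5%: IRF2BP2, a corepressor partner of IRF2, rose from 74.7 to 95.3 CPM (0.35), and its relative IRF2BPL fell from 61.5 to 43.2 CPM (-0.51).

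All 15 negative regulators and modulators of receptor signalling were tested, and 5 rose, 4 fell and 6 were not called, a called share of 60.0% beside 41.5%, with a median log2 fold change of -0.16. LGALS9, named after its values were seen, is among those that fell, on 16, 22 and 26 counts in siNC and 6, 3 and 13 in siTCF19. Its siTCF19 libraries alone would not have passed the filter on low counts, so it could be called lower but hardly higher. SH2B3, an adaptor that restrains JAK signalling, fell from 190 ± 2.67 to 51.4 ± 2.12 CPM (SD, n = 3 per group, log2 fold change -1.89, edgeR adjusted p = 2.88e-28). The phosphatase gene PTPN11 fell from 306 to 225 CPM (-0.45). SOCS3, a feedback inhibitor of cytokine receptors, rose from 6.97 to 10.5 CPM (0.59), and PIAS2, a SUMO ligase that binds STAT proteins, from 49.1 to 61.4 CPM (0.32). USP18, which displaces JAK1 from IFNAR2 and was named after its values were seen, was not called (log2 fold change -0.20, edgeR adjusted p = 0.0972).

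Of 19 genes that lead from nucleic acid sensors to IRF3 and IRF7, 16 were tested, 3 rose, 6 fell and 7 were not called, a called share of 56.2% beside 41.5%. The RNA sensor gene IFIH1 fell from 5.05 ± 0.401 to 1.65 ± 0.305 CPM (SD, n = 3 per group, log2 fold change -1.62, edgeR adjusted p = 1.25e-07) and the related helicase gene DHX58 from 6.02 to 2.13 CPM (-1.49). MAVS, the mitochondrial adaptor of these sensors, fell from 265 to 223 CPM (-0.25), and IRAK1, a kinase of the Toll-like receptor path to IRF7, from 370 to 282 CPM (-0.39). The kinases that phosphorylate IRF3 and IRF7, named after their values were seen, went up: TBK1 by 0.22 (edgeR adjusted p = 0.00279) and IKBKE by 0.61 (edgeR adjusted p = 0.000147) on the log2 scale.

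Most of the tested ISGF3 targets were lower in siTCF19. Of 38 genes known as ISGF3 targets, 31 were tested, 25 fell, 0 rose and 6 were not called, a called share of 80.6% beside 41.5% of all tested genes, with a median log2 fold change of -1.01 beside 0.00. By DESeq2 the number of these genes called higher was also 0, as it was at an unadjusted p under 0.05. OAS1 (14, 23 and 27 counts in siNC, 1, 2 and 0 in siTCF19), OAS2 and OAS3 passed the filter on low counts through siNC only. Such genes could be called lower but hardly higher, and these are among the 25 that fell. IFI44L, a gene named for its induction by interferon, fell from 16.4 ± 0.742 to 2.53 ± 0.248 CPM (SD, n = 3 per group, log2 fold change -2.70, edgeR adjusted p = 7.73e-19). IFI6 fell 7.94-fold, IFI27 6.77-fold and ISG15 3.83-fold. Of 22 genes known as targets of IRF1 or of GAS elements, 14 were tested, 6 rose, 2 fell and 6 were not called, a called share of 57.1% beside 41.5%, with a median of 0.26. The guanylate-binding protein gene GBP3 rose, with means of 0.367 ± 0.152 CPM in siNC and 2.18 ± 0.252 CPM in siTCF19 (SD, n = 3 per group, log2 fold change 2.56, edgeR adjusted p = 1.02e-06), on 3, 8 and 6 counts in siNC and 39, 30 and 32 in siTCF19. GBP3 passed the filter on low counts through siTCF19 only. B2M, the invariant chain of class I antigen presentation, rose by 0.68 on the log2 scale and TAPBP, a peptide-loading chaperone, by 0.30. GBP2, a relative of GBP3, rose by 1.02 (edgeR adjusted p = 0.0163), on 15, 21 and 8 counts in siNC and 29, 24 and 37 in siTCF19, and its call was lost under 4 alternatives. Among them are the fits without siNC replicate 3 (0.71, edgeR adjusted p = 0.126) and without siTCF19 replicate 3 (0.85, edgeR adjusted p = 0.0989). The siNC libraries of GBP2 alone would not have passed the filter on low counts, as replicate 3 had 8 counts. Genes such as GBP2 and GBP3 could be called higher but hardly lower, and both are among the 6 that rose. These 2 lists were described with earlier results of the same data known, and the difference between them was not tested.

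**Figure D4:**
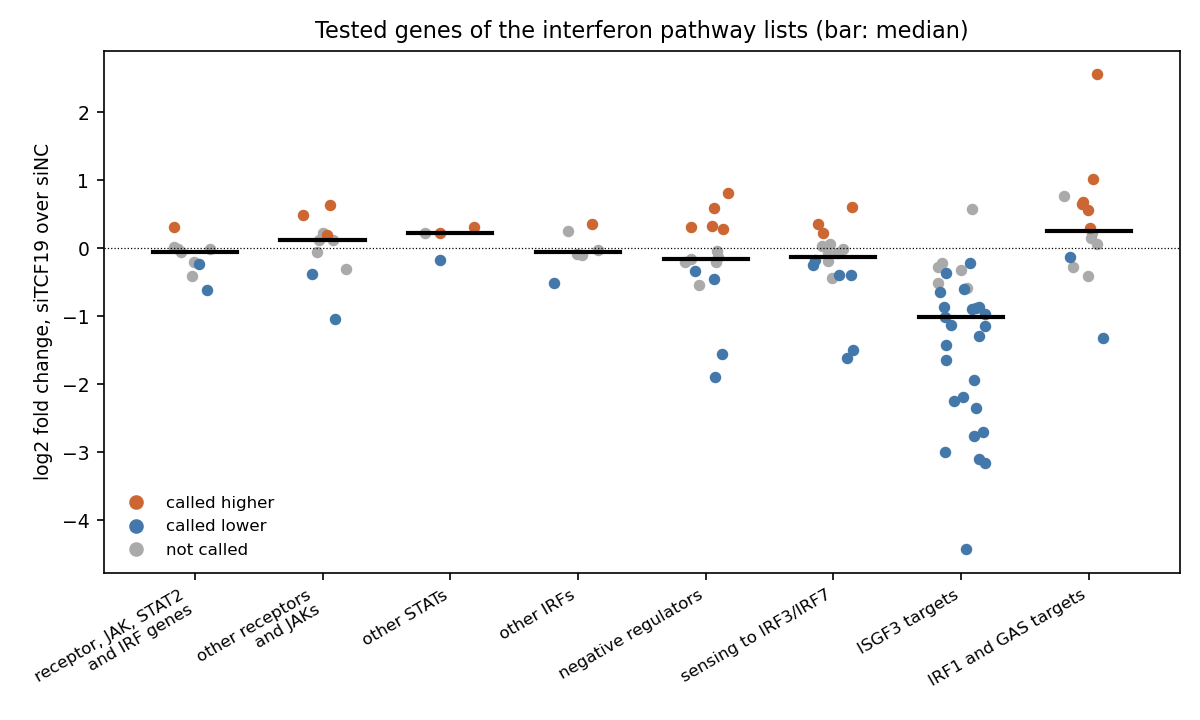
Log2 fold change of siTCF19 over siNC (vertical axis) of every tested gene of 8 lists, with the list's median as a black bar and calls in colour. The ISGF3 targets lie lowest, with a median of -1.01, while the 9 receptor, JAK, STAT2 and IRF genes centre at -0.05.

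Promoter letters were compared between the pathway genes and their targets. RefSeq windows of 250 bases before to 50 bases after a start site (GRCh38.p14) were matched by symbol for 6 of the 9 genes: IFNAR1, JAK1, TYK2, STAT2, IRF9 and IRF1. They were searched for the ISRE letters GAAANNGAAA or TTTCNNTTTC, which are the same element on either strand, and for the GAS letters TTCNNNGAA, which read the same on both strands. An ISRE match was found in 0 of these 6 genes and in 4.38% of all 27305 genes with a window. It was found in 22 of 31 ISGF3 targets with a window and in 13 of 16 IRF1 or GAS targets with a window. A GAS match was found in 2 of the 6, IRF1 and IRF9. Of the 31 ISGF3 targets 9 had a GAS match, as did 6 of the 16 IRF1 or GAS targets and 9.38% of all genes. The elements may overlap, as they do in IFI27. A match is a description of letters, and the absence of one says only that they are not in this window.

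The windows of 30 bases that hold these matches are shown for the 2 pathway genes with a GAS match and for the 4 ISGF3 targets named above, and are given 5′ to 3′ on the strand of the gene, with the matched letters in capitals. IRF1 (chr5:132490878-132490907, minus strand) has its GAS match starting 124 bases before the start site, and IRF9 (chr14:24161192-24161221, plus strand) 63 bases before it. ISG15 (chr1:1013377-1013406, plus strand) has 2 overlapping ISRE matches, which start 113 and 107 bases before the start site. The ISRE match of IFI6 nearest the start site (chr1:27672266-27672295, minus strand) starts 93 bases before it. IFI44L is shown at chr1:78620365-78620394 (plus strand), 73 bases before its start site, and IFI27 at chr14:94110625-94110654 (plus strand), where 2 ISRE matches and a GAS match run together.
IRF1: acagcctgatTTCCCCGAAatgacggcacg
IRF9: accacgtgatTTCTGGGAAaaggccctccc
ISG15: gcctcggGAAAGGGAAACCGAAActgaagc
IFI6: gcagagtgcaGAAATAGAAActccgacagg
IFI44L: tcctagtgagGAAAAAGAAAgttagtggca
IFI27: cagTTTCGGTTTCCTGGAAAATGAAAccta

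IRF1 and IRF9, the genes with a GAS match, were not called. Of the 22 ISGF3 targets with an ISRE match in the window, 19 were tested, 17 fell and 0 rose, with a median log2 fold change of -1.28. Of the 9 without one, 7 were tested, 4 fell and 0 rose, with a median of -0.52. For comparison, 25 of the 31 tested ISGF3 targets fell, and 20.8% of all tested genes were called lower. OAS3, which has an ISRE match in the window, and OAS1, which has no match there, passed the filter on low counts through siNC only. The OAS1 window holds ggaaacgaaacc, with fewer bases between the gaaa words than the searched letters require. Targets without a match may therefore still hold similar letters. The difference between targets with and without an ISRE match was not tested, and only the ISGF3 list was split in this way. Of the IRF1 or GAS targets, 13 of 16 with a window have an ISRE match. In that list 14 genes were tested, 6 rose and 2 fell. B2M and TAPBP, which have an ISRE match, are among those that rose. GBP2 and GBP3 are too, with the limit of the filter given above.

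An earlier look at these data had picked out the words TGGTCAA and GGTCAAA in 3' UTRs, whose carriers lay lower in siTCF19. Neither word occurs in the longest annotated 3' UTR of any of the 9 genes, while 12.9% of tested protein-coding genes carry at least 1 of them. The 3' UTRs of the 9 run from 81 bases in IRF3 to 4316 bases in IFNAR1, and a short one has less room for a word. With 9 genes, the absence is not read as a difference from that share. The carriers had a median log2 fold change of -0.05 and other genes of 0.00, a direction already known from that earlier look and therefore no new result. Among the genes named here from the pathway lists, SH2B3, PTPN11, STAT3 and MAVS, which fell, and IRF2BP2 and IKBKE, which rose, carry a word. Other named genes, such as TCF19 and those nearest to the IRF7 profile, are not covered here. SH2B3 carries GGTCAAA at 2 places, PTPN11 and IRF2BP2 carry TGGTCAA, and STAT3 and IKBKE carry GGTCAAA. MAVS carries both words at 2 places each, in a 3' UTR of 9979 bases. What part these words have in any change was not tested.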

How the data were processed

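The authors deposited 1 table of 58735 genes with whole-number read counts and FPKM values per library, per the file headers, and HISAT2 2.0.5, featureCounts 1.5.0-p3 and the build hg38 are named in the submitters' processing notes. The sources used here do not give the strand and multi-gene settings of the counting. The authors' log2 fold change, p-value and adjusted p-value and a normalized mean signal per group are deposited in the same table, with no tool named, and the signal was not used. All 58735 gene starts and ends equalled GENCODE 29. All columns were matched to libraries by name, and 27 symbols stored as dates were replaced through the gene ID.

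Counts were tested with edgeR 4.0.16 (glmQLFit and glmQLFTest, R 4.3.3) after filterByExpr and TMM scaling, with a single term for the group and Benjamini-Hochberg adjustment over 17299 tested genes, which held at least 99.7% of the counts of each library. Genes were called at an adjusted p under 0.05. Intervals of folds are 95% intervals from the model's errors, and intervals and floors do not cover PCR copies. The fit was tested only on simulated independent libraries in which few genes changed, unlike the share called here. That test does not cover technical replicates. Differences between groups are siTCF19 minus siNC. DESeq2 1.42.0 and limma 3.58.1 served as alternatives, and ratios, exact tests and motif searches were run in Python 3.11.15 with scipy 1.17.1.

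Named genes are TCF19, the 9 genes, from each list the 4 called genes with the lowest p (or, with none called, the 2 most abundant), tested genes that overlap a member, and the 5 genes nearest to the member with the lowest p. The members and lists were chosen with earlier results of these data known. Some further genes of the pathway are not reported here.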

Additional observations from a re-analysis of the deposited data

How the results depend on the processing

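IFNAR1, TYK2 and IRF7 were called in the same direction under all 17 alternatives, with log2 fold changes of 0.26 to 0.38, -0.28 to -0.17 and -0.65 to -0.52 and highest adjusted p-values of 0.0141, 0.0248 and 0.000613. The counts of genes called and of members called stayed within 1.5 times under every alternative run. The p-values of the 4 ratios could not pass 0.05 in any setting and say nothing of stability. Without 1 library their log2 differences ran from 0.20 to 0.49 for IFNAR1 to IFNAR2, 0.15 to 0.27 for JAK1 to TYK2, 0.26 to 0.63 for STAT2 to IRF9 and -0.65 to -0.56 for IRF7 to IRF3. IRF9 was called in 2 of 18 alternatives, both given with its values. Uncalled genes near 0 changed sign, and the cause was not tested. Scaling by library size alone put the median of all genes at 0.06 and the log2 fold change at 0.0059 for IFNAR2, 0.054 for JAK1, 0.044 for IRF3 and 0.037 for RAVER2, a gene that shares 4 exon bases with JAK1. JAK1 was at 0.00030 with upper-quartile scaling and at 0.0013 with protein-coding genes only. Leaving out 1 library at a time gave -0.195 to 0.071 for IFNAR2, -0.048 to 0.055 for JAK1, -0.029 to 0.082 for STAT2, -0.061 to 0.075 for IRF3, -0.040 to 0.024 for RAVER2 and -0.058 to 0.063 for BCL2L12. The signs turned without siNC replicate 3 for IFNAR2, JAK1, STAT2 and BCL2L12, without siNC replicate 1 for IRF3, without siTCF19 replicate 2 for IFNAR2, JAK1 and IRF3, and without siTCF19 replicate 3 for JAK1, STAT2, RAVER2 and BCL2L12. IFNAR2 gave no value under the filter of at least 1 CPM in 3 libraries.

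The replicate numbers are shared between groups but same-numbered libraries did not deviate together (correlations of 0.0086, -0.0241 and 0.021). With the replicate number as a block, 3433 genes were called higher and 3441 lower, and the members called were again 1 higher and 2 lower, with IFNAR1 at 0.31, TYK2 at -0.23 and IRF7 at -0.62. With 10 to 15 counts per library, IFNAR2 had the fewest counts of the 9 genes, and its shared exon bases bear on these counts as described above.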
